A study of Mus musculus with 2 samples.

Results

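T cells are the lymphocytes that carry a T-cell antigen receptor, a pair of variable chains held at the cell surface together with the CD3 proteins. They were picked out here from scRNA-seq of mouse fracture calluses by the transcripts of that receptor complex. A barcode (the tag that marks 1 droplet) was taken as a T cell when it held at least 3 UMIs, from at least 2 genes, of Cd3d, Cd3e, Cd3g, Trac and Trbc2, and at least 1 UMI of a CD3 gene. A UMI, or unique molecular identifier, is 1 count per captured RNA molecule. Barcodes with 3 or more UMIs of the NK cell genes Ncr1, Klrb1c, Klre1, Klra8 and Eomes, with any UMI of the B cell genes Cd79a and Ms4a1, or with 100 or more UMIs of the cartilage gene Col2a1 per 10000 were left out. Of 21266 barcodes with at least 200 genes and at most 20% mitochondrial UMIs, 865 passed (4.07%). Library MGJ gave 213 of 13460 barcodes, or 1.58% (95% exact binomial interval 1.38 to 1.81%). Library MGJ2 gave 652 of 7806, or 8.35% (7.75 to 8.99%). All intervals given here cover counting error only.

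The tissue was the callus, the repair tissue of a broken femur, taken from 12-week-old male wild-type C57BL/6J mice after femoral fracture. Calluses had been collected 10 days and 20 days after fracture, from 5 mice on each day, and were digested with enzymes and run on the 10x 3′ chemistry. The labels of both libraries were the same in genotype, treatment and tissue and gave neither library a day, and barcodes do not tell mice apart. Each library was therefore described on its own, with no comparison of days and no test between the libraries, and a difference between them cannot be told apart from a difference between days or mice.

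In bone repair, T cells are known both as sources of signals to bone cells and as brakes on inflammation. CD4 T cells help other immune cells, CD8 T cells kill target cells through granzymes and perforin, and regulatory T cells, marked by the transcription factor FOXP3, restrain other T cells. Gamma-delta T cells carry another receptor pair and are a known early source of interleukin 17A in injured bone, while RANKL, the product of Tnfsf11, drives the formation of osteoclasts.

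The T cells were shallower than the other barcodes in MGJ and of similar depth in MGJ2. Their median was 3348 UMIs and 1339 genes in MGJ and 5283 UMIs and 1886 genes in MGJ2, beside medians of 5872 and 5051 UMIs in all other barcodes. They ranged from 561 to 22270 UMIs in MGJ and from 1158 to 29064 in MGJ2. Mitochondrial genes took a median of 4.54% and 5.36% of their UMIs. Of the kept barcodes, 15 sequences occurred in both libraries, and none of these was a T cell in both. Scrublet, a caller of droplets with more than 1 cell, marked 8 T cells in MGJ and 33 in MGJ2, all of which were kept. It marked 1.03% and 2.86% of all kept barcodes, against 11.4% and 6.41% assumed from their number.

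Transcripts of other cells were present in some T-cell barcodes. A barcode was called mixed when collagen, macrophage, globin or MHC class II genes reached 20 UMIs per 10000, or S100a8 and S100a9 reached 100. This held for 34 T cells in MGJ (16.0%) and 43 in MGJ2 (6.60%), of which Scrublet had marked 7 and 26. Gene levels over all T cells of a library, and ratios between classes of its T cells, were computed again without them. The second value is given below where it differed from the first by more than 1.5 times. Mixed barcodes were defined by Col1a1, Col1a2, Col3a1, Lyz2, C1qa, C1qb, C1qc, Hbb-bs, Hbb-bt, Hba-a1, Hba-a2, Cd74, H2-Aa, H2-Ab1, S100a8 and S100a9. Removing them lowers these genes by construction, so a second value for one of these genes is no check. Col2a1 was found in 189 of the 213 T cells of MGJ (88.7%), at a level of 631 CPM (UMIs per 1000000 UMIs of the class), and in 142 of the 652 in MGJ2 (21.8%), at 84.7 CPM (46.9 CPM without mixed barcodes). Neutrophils held it in similar shares, 86.5% in MGJ and 22.2% in MGJ2, so these shares are not particular to T cells.

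The 5 receptor genes chose the cells, so their levels are a description and not a finding. Cd3d, which encodes the delta chain of CD3, stood at 686 CPM in the T cells of MGJ and 447 CPM in those of MGJ2. It was at 0.617 and 7.27 CPM in all other barcodes. Cd3g, the gamma chain, stood at 696 and 300 CPM, and Cd3e, the epsilon chain, at 255 and 324 CPM. Trac, the constant part of the alpha chain, was at 344 CPM in both libraries, and Trbc2, a constant part of the beta chain, was at 1063 and 887 CPM. All 5 genes were detected in 68 T cells of MGJ and 226 of MGJ2, and only 2 of them in 19 and 43. The median T cell held 11 UMIs of the 5 genes in MGJ and 12 in MGJ2.

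At the edge of the rule, 11 T cells of MGJ and 23 of MGJ2 held exactly 3 UMIs of the 5 genes. Just outside it, 6 and 9 barcodes held 2 UMIs from 2 genes. The limit on NK genes mattered in MGJ2, where 114 barcodes with T-cell genes were left out for 3 or more NK UMIs, beside 5 in MGJ. Of those left out for NK genes alone, 5 in MGJ and 112 in MGJ2, Klre1 was detected in 5 and 96, Eomes in 2 and 74, and Ncr1 in 1 and 4. Trac was detected in 4 and 82 of the same barcodes, Ccl5 in 5 and 111, and Cd8a in 0 and 24. Among the T cells that were kept, 54 in MGJ2 and 6 in MGJ had 2 NK UMIs, the most the rule allows. The limit on Col2a1 left out 8 barcodes in MGJ and 0 in MGJ2.

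Cd3d and Cd3g lie back to back on chromosome 9, with 1355 bases between their starts. Cd3d runs from 44981786 to 44987339 on the plus strand and Cd3g from 44969572 to 44980431 on the minus strand (GRCm38). Cd3d was detected in 187 T cells of MGJ and 565 of MGJ2, and Cd3g in 172 and 455. The 250 bases before each start are shown because the rule rests on this gene pair. They were read 5′ to 3′ on each gene's own strand from RefSeq promoters of GRCm38.p6, at chr9:44981536-44981785 for Cd3d and chr9:44980432-44980681 for Cd3g. Capitals mark matches to any of 3 motifs on either strand. The motif of RUNX factors was searched as TGTGGT. The motif of ETS factors was searched as AGGAAG. The box found before many gene starts was searched as TATAAA.
Cd3d: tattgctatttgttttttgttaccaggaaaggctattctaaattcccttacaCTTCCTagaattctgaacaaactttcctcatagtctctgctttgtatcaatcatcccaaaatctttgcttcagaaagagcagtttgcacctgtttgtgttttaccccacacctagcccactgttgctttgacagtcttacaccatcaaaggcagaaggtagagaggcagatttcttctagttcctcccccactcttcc
Cd3g: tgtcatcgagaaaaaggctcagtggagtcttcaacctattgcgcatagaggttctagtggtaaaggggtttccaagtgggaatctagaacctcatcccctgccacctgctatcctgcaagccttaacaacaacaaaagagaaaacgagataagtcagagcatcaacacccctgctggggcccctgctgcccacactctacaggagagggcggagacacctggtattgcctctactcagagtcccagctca
The Cd3d stretch held AGGAAG once, on the opposite strand and 198 bases before the start, and the Cd3g stretch held none of these letters. Of 32851 promoters of this length, 29.5% held AGGAAG, 14.1% TGTGGT and 12.4% TATAAA. These matches are letters in a window, not binding sites.

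The name T cells was then set beside genes that the rule did not use. Of 20 further T-cell identity genes, 19 were high enough to be counted, and all 19 were at least 2 times as high in T cells as in all other barcodes of each library. Their median ratio was 210 in MGJ and 19.7 in MGJ2. Over all 5557 genes counted in MGJ, 21.4% were at least 2 times as high in T cells and 16.1% at most 0.5 times as high, with a median ratio of 1.21. Over 5713 genes in MGJ2, 12.6% and 15.6% were, with a median of 1.12. A gene was counted where its mean CPM over both classes reached 20. Genes near 0 in other barcodes, such as Cd6 at 0.316 CPM in MGJ, were counted only through their T-cell level. A high ratio was then built in. Since the rule also chose the cells on this same contrast, the counts are no check of the name and nothing further is read from them. CD28, the main costimulatory receptor, had a level of 220 CPM in MGJ and 295 CPM in MGJ2, against 0.933 and 12.7 CPM in other barcodes. Lat, the adaptor that passes on the receptor signal, stood at 181 and 236 CPM.

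Markers of other cell types were summed in T cells and in all other barcodes, and they differed by type. The 10 neutrophil genes summed to 2929 CPM in T cells against 23649 CPM in other barcodes of MGJ, and to 6564 against 54438 CPM in MGJ2. The 10 chondrocyte genes summed to 1488 against 46467 CPM and to 405 against 7346 CPM. They include Col2a1, whose limit in the rule left out 8 barcodes in MGJ and 0 in MGJ2. Ncr1 was at 0 UMIs in the T cells of both libraries, and the 8 NK genes summed to 37.5 CPM in MGJ (3.72 CPM in other barcodes) and 93.1 CPM in MGJ2 (166 CPM). Of these 8 genes, 5 were limited by the rule, Ncr1 among them, so their sum in T cells was held down by it. The 10 B cell genes, with Cd79a and Ms4a1 at 0 by the rule, summed to 96.5 against 317 CPM and to 118 against 2731 CPM. Some lists lay near the level of other barcodes in MGJ. The 10 macrophage and monocyte genes summed there to 2199 against 3107 CPM, and the 9 dendritic cell genes to 1102 against 1276 CPM. The 5 genes of type 2 innate lymphoid cells summed to 255 against 262 CPM, of which Il1rl1 alone gave 169 CPM in T cells. The 5 endothelial genes summed to 106 against 95.7 CPM, of which Pecam1 alone gave 91.15 CPM in T cells. Without mixed barcodes, Cd74 and H2-Aa of the dendritic cell list fell in MGJ from 627 to 41.4 CPM and from 233 to 9.56 CPM. These 2 genes were part of the definition of mixed barcodes. Of the macrophage and monocyte list, Csf1r fell from 39.7 to 1.59 CPM and Adgre1 from 44.0 to 3.19 CPM, while Ccr2 rose from 370 to 438 CPM. The sums of the lists were not computed again. In MGJ2 macrophage and monocyte genes summed to 1183 against 5824 CPM. Erythroid genes went the other way in MGJ, where 6 of them summed to 3317 CPM in T cells and 1267 CPM in other barcodes. Hbb-bs, a beta globin that was also part of that definition, was at 1752 CPM there, and at 36.7 CPM without the mixed barcodes.

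Ranked by the lower of the 2 libraries' ratios among 5258 genes, the first 15 genes were Foxp3, Actn2, Tnfsf8, Izumo1r, Themis, Cd8b1, Cd163l1, Cd8a, Bcl11b, Ctla4, B4galnt4, Cd6, Cd5, Icos and Cxcr6. Themis, a scaffold of receptor signalling in developing T cells, was 76.1 times as high in T cells as in other barcodes of MGJ2. Icos, a costimulatory receptor, stood at 781 CPM in MGJ and 402 CPM in MGJ2, with a ratio of 637 and 38.1. Cxcr6, a chemokine receptor of tissue-resident T cells, had a ratio of 311 and 35.1. Bcl11b, a transcription factor needed for commitment to the T lineage, had a ratio of 240 and 53.2.

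In MGJ2 there were 568 NK cells by their own marker rule, enough to set the closest cell type beside the T cells. Cd6, a surface receptor that tunes T-cell signals, was 32.3 times as high in T cells (20.3 to 54.8). Bcl11b was 208 times as high (70.9 to 1010) and Il7r, the interleukin 7 receptor, 17.7 times (12.6 to 25.7). Cxcr6 was 40.1 times as high in T cells (24.6 to 70.5). Several genes often read as T-cell or killer-cell genes did not separate the classes in that way. Trbc1, the other constant part of the beta chain, was at 518 CPM in T cells, 1.10 times its level in NK cells (1.03 to 1.18). Trbc1 and Trbc2 are near copies, so the split of reads between them is uncertain. Ccl5, a chemokine of activated lymphocytes, was at 0.680 times the NK cell level (0.667 to 0.695), and Gzma, encoding granzyme A, at 0.144 times. Both classes were chosen with NK genes. The T-cell rule left out 112 barcodes of MGJ2 for those genes alone, of which 111 held Ccl5, so these ratios describe only the classes as chosen.

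A coreceptor transcript was detected in fewer than all T cells. Cd4 alone was detected in 50 T cells of MGJ (23.5%, 18.0 to 29.8%) and 61 of MGJ2 (9.36%, 7.23 to 11.9%). Cd8a or Cd8b1 alone was detected in 27 of MGJ (12.7%, 8.52 to 17.9%) and 310 of MGJ2 (47.6%, 43.7 to 51.5%). In MGJ the CD4-only cells outnumbered the CD8-only cells, and in MGJ2 the order was the reverse. One barcode in each library held both, and 135 (63.4%) and 280 (42.9%) held neither. Thinned to 1000 UMIs per cell, which left 211 and 652 cells, the expected CD4-only share was 8.53% and 2.79%, and the CD8-only share 7.77% and 20.5%. In neutrophils, which should lack both genes, Cd4 was found in 1 of 1834 cells of MGJ and 1 of 1727 of MGJ2. Cd8a or Cd8b1 was found in 0 of 1834, which allows a share of up to 0.164% (3 counts of the total), and in 2 of 1727, at median depths of 2218 and 2745 UMIs. Barcodes with a Cd3 UMI were not counted as neutrophils, which can lower these shares.

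**Figure D1:**
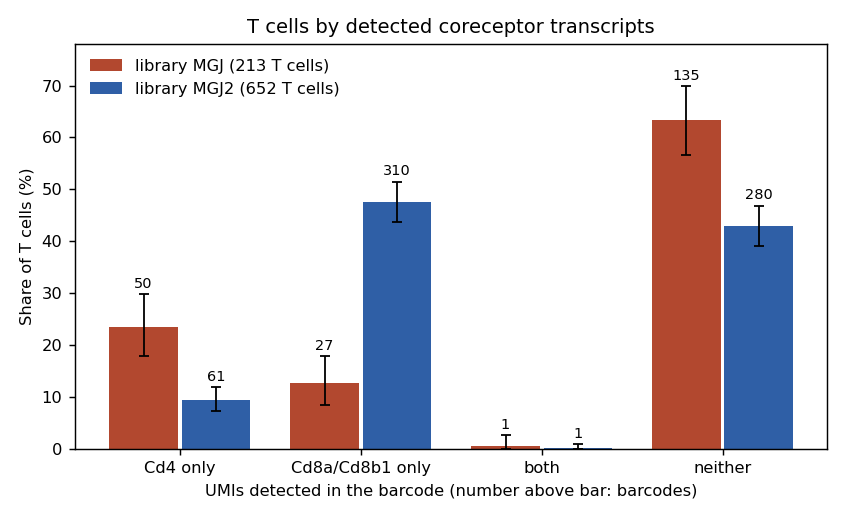
Share of T cells (%) by detected coreceptor transcript in library MGJ (213 T cells) and library MGJ2 (652 T cells). Bars start at 0, error bars are 95% exact binomial intervals and the number above each bar counts barcodes. CD8-only cells made up 12.7% in MGJ and 47.6% in MGJ2, and cells with neither transcript 63.4% and 42.9%.

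The bar plot of coreceptor shares shows how large the class without a coreceptor transcript was. Since Cd4 was at 86.9 CPM in all T cells of MGJ and 26.5 CPM in those of MGJ2, a cell without a Cd4 UMI at this depth is not shown to lack CD4. The words CD4-only and CD8-only therefore refer to detected transcripts. Of the T cells with neither, 21 in MGJ and 90 in MGJ2 held a UMI of a gamma-delta receptor constant gene.

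The programme genes of T cells differed in level between the libraries. The 8 genes of naive and circulating T cells summed to 946 CPM in MGJ and 1937 CPM in MGJ2. S1pr1, the receptor that lets T cells leave tissue, was at 102 CPM in MGJ (82.4 to 125) and 616 CPM in MGJ2 (592 to 641). Ccr7, the lymph node homing receptor, was at 74.0 CPM (57.6 to 93.6) and 342 CPM (324 to 361). Klf2, the transcription factor that switches on S1pr1, was at 121 and 408 CPM. Lef1 and Tcf7, transcription factors of naive and memory T cells, followed the same order, with Lef1 at 38.6 and 246 CPM. Tcf7 was at 75.1 and 150 CPM. Il7r went the other way, at 449 CPM in MGJ and 220 CPM in MGJ2. By cells, S1pr1 was detected in 56 of 213 (26.3%) and 559 of 652 (85.7%), and after thinning to 1000 UMIs in 11.0% and 44.5%.

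The 14 genes of memory, effector and residence summed to 6557 CPM in MGJ and 8268 CPM in MGJ2, and single members went either way. Ccl5, the highest of them in MGJ2, was at 1326 and 4569 CPM. Other members stood higher in MGJ. Cxcr6 was at 779 CPM in MGJ (723 to 837) and 234 CPM in MGJ2 (219 to 250), and was detected in 69.5% and 40.3% of the T cells. Rgs1, a brake on chemokine receptor signals, was at 980 and 531 CPM. S100a4, a gene of effector and memory T cells, was at 1363 and 435 CPM. Cd69, which holds T cells in tissue by removing the S1pr1 product, was at 178 and 69.7 CPM, yet its share of cells was alike, 23.0% (17.5 to 29.3%) and 23.9% (20.7 to 27.4%). Thinned to 1000 UMIs, that share was 11.3% and 6.86%, set beside 1.59% and 1.99% in neutrophils. Il2rb, the interleukin 2 receptor beta chain, was higher in MGJ2, at 467 CPM in MGJ and 1057 CPM in MGJ2.

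**Figure D2:**
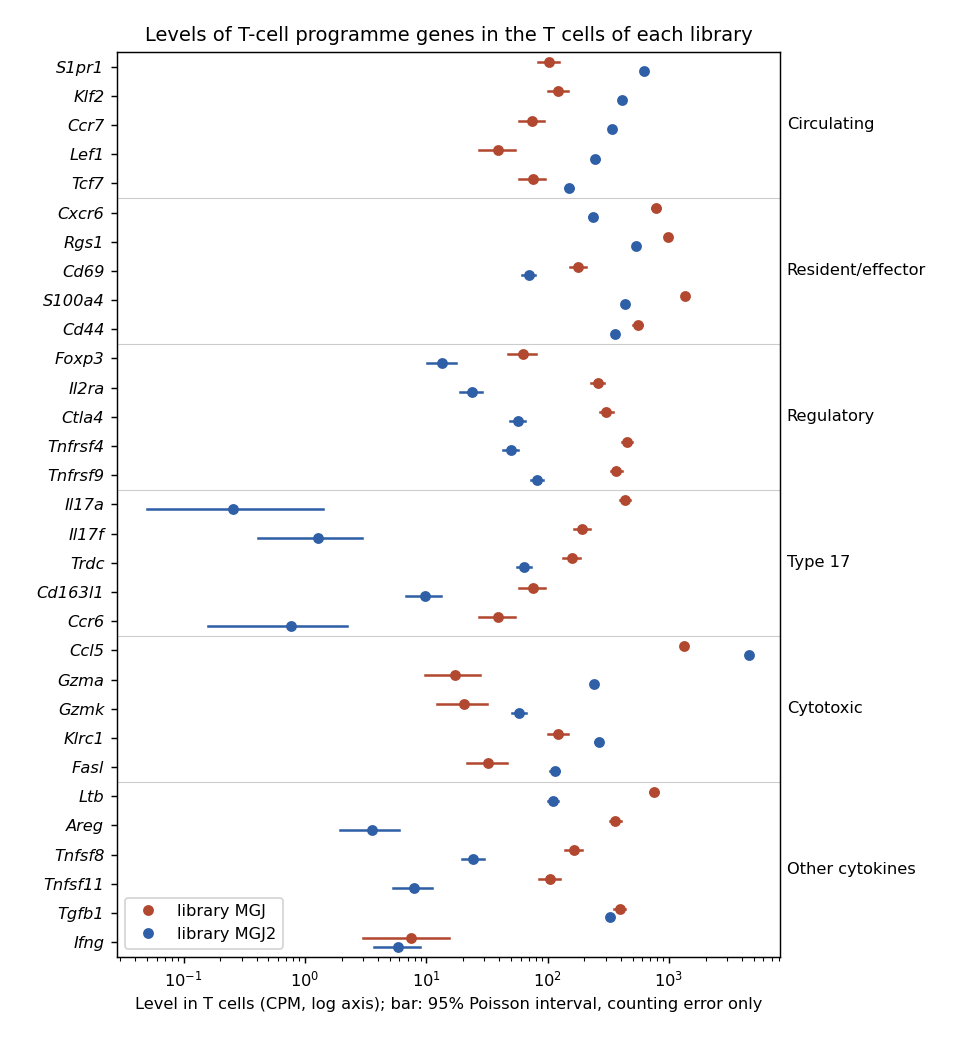
Level of programme genes in the T cells of library MGJ and library MGJ2, in CPM on a log axis, grouped by programme. Points are summed UMIs over total UMIs, and bars are 95% Poisson intervals for counting error only. S1pr1 and Ccr7 stood higher in MGJ2 (616 and 342 CPM) and Cxcr6, Foxp3 and Il17a in MGJ (779, 62.2 and 436 CPM).

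The plot of programme levels by library shows these groups beside the cytokine genes taken up next. The order between the libraries was also read without the mixed barcodes. There, Cxcr6 was at 1017 and 257 CPM and S1pr1 at 126 and 671 CPM, in the same order as with them. Cd44, a memory marker that myeloid cells also express, was at 551 and 358 CPM, and without mixed barcodes at 357 and 243 CPM.

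CD8-only and CD4-only T cells were then set against each other within each library. Coreceptor genes were not part of the T-cell rule, and Cd4, Cd8a, Cd8b1 and the genes of the rule were left out of the counts. Among the genes counted, most cytotoxic genes stood higher in CD8-only cells and most regulatory genes in CD4-only cells, in both libraries. Of 8 cytotoxic genes counted in MGJ, 6 were at least 2 times as high in CD8-only cells, with a median ratio of 4.97, where 8.85% of all 2757 genes counted were. Of 9 in MGJ2, 8 were, with a median of 4.51, where 1.58% of 3047 genes were. Of the regulatory genes, 5 of 6 in MGJ and 5 of 5 in MGJ2 were at most 0.5 times as high in CD8-only cells, with medians of 0.178 and 0.324. The background for that direction was 17.1% in MGJ and 4.27% in MGJ2, and the median over all genes counted was 0.916 and 0.957. A gene was counted on its mean CPM over both classes, so a high level in either class alone was enough. In MGJ, Il2ra (0 CPM in CD8-only and 227 CPM in CD4-only cells) was counted only through its CD4-only level. Gzmk (153 and 15.9 CPM) was counted there mainly through its CD8-only level. For such genes a ratio far from the median was partly built in. The background was counted by the same rule. All counts of genes in this contrast are therefore descriptions of the genes counted and no test of the class names.

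Ccl5 was far higher in CD8-only cells. It was at 9671 CPM in CD8-only and 143 CPM in CD4-only cells of MGJ, a ratio of 67.5 (48.4 to 97.0). In MGJ2 it was at 6338 and 892 CPM, a ratio of 7.11 (6.36 to 7.97). Nkg7, a protein of cytotoxic granules, was at 1016 and 63.7 CPM in MGJ (ratio 16.0, 9.33 to 29.1). In MGJ2 Nkg7 was at 380 and 84.1 CPM (4.51, 3.13 to 6.74). Granzyme genes did not behave alike in these cells. Gzma was at 438 CPM in CD8-only and 19.6 CPM in CD4-only cells of MGJ2 (22.3, 10.8 to 55.7), from 845 UMIs in 64 of the 310 cells. Gzmk, for granzyme K, was 9.61 times as high in MGJ (3.02 to 40.1), or 5.62 times without mixed barcodes (1.62 to 24.6), and 4.65 times in MGJ2. Gzmb, for granzyme B, was at 240 and 239 CPM in MGJ, so that no gap was seen there, and at 110 and 44.9 CPM in MGJ2. Klrc1, an NKG2 receptor chain, likewise showed no gap in MGJ (153 and 147 CPM) and a 4.85-fold higher level in CD8-only cells of MGJ2.

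On the CD4 side, costimulatory receptors and 2 transcription factors stood out. Maf, a factor of helper and gamma-delta T cells, was at 43.0 CPM in CD8-only and 564 CPM in CD4-only cells of MGJ2, a ratio of 0.0764 (0.0584 to 0.0991). In MGJ its ratio was 0.0939. Rora, a factor of type 17 and resident cells, was at 98.4 and 617 CPM in MGJ. Tnfrsf4, which encodes OX40, was at 10.9 and 613 CPM in MGJ and at 13.5 and 266 CPM in MGJ2 (9.27 and 312 CPM without mixed barcodes). Il2ra, the high-affinity interleukin 2 receptor chain, had 0 UMIs in the CD8-only cells of MGJ against 57 UMIs in CD4-only cells, and a ratio of 0.0529 in MGJ2. Without mixed barcodes that ratio was 0.00896 (0.000217 to 0.0557). Ikzf2, which encodes Helios, differed between the libraries, with a ratio of 1.54 in MGJ and 0.324 in MGJ2 (184 and 566 CPM). The difference between those ratios was not tested.

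**Figure D3:**
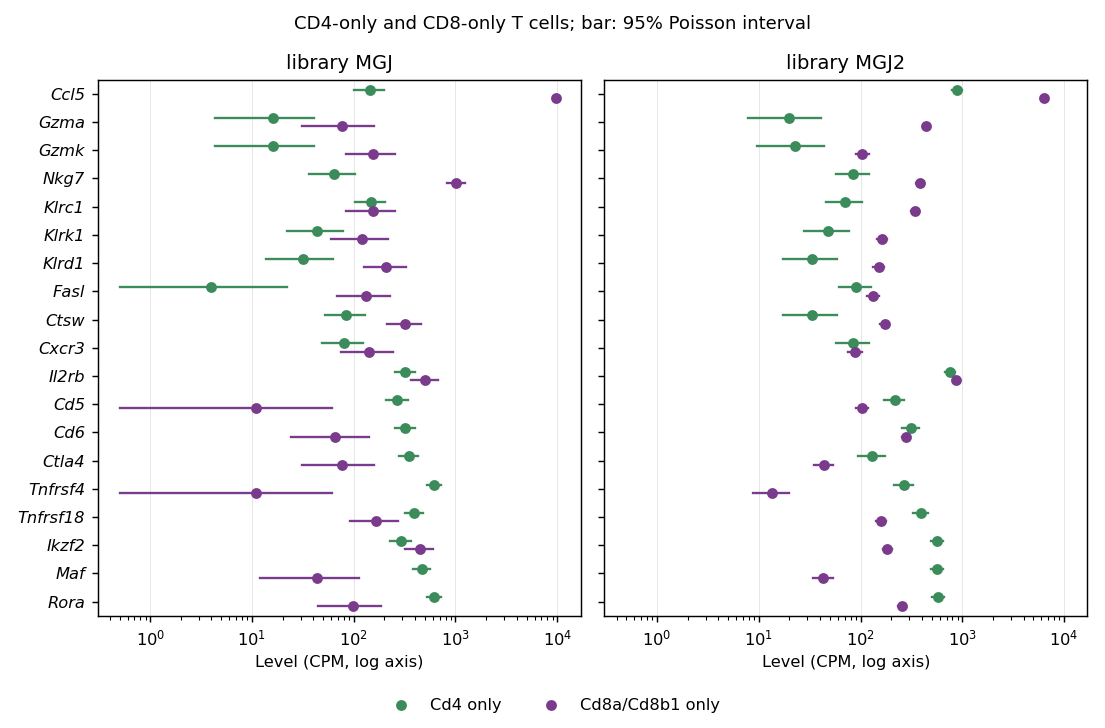
Level in CD4-only and CD8-only T cells of library MGJ (50 and 27 cells) and library MGJ2 (61 and 310 cells), in CPM on a log axis. Bars are 95% Poisson intervals for counting error only and end at 0.5 CPM where the lower bound lies below it. In both panels Ccl5 and Nkg7 lie higher in CD8-only cells and Tnfrsf4 and Maf in CD4-only cells.

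The plot of CD4-only and CD8-only levels shows wider intervals in MGJ, where the classes held 91506 and 251330 UMIs, than in MGJ2, where the CD8-only cells held 1928374. Ligands of the TNF family also lay on the CD4 side. Tnfsf8, the CD30 ligand, had 0 UMIs in CD8-only and 61 UMIs in CD4-only cells of MGJ, and 3.63 and 185 CPM in MGJ2 (ratio 0.0196, 0.00759 to 0.0427). Tnfsf11 had 0 and 39 UMIs in MGJ and 1.04 and 47.7 CPM in MGJ2. Cd40lg, by which helper T cells license other cells, had 0 CD8-only UMIs in both libraries, and 6 and 7 UMIs in CD4-only cells.

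Genes of other cells moved with this contrast. In MGJ 6 of 7 macrophage and monocyte genes counted were at most 0.5 times as high in CD8-only cells, and that list summed to 820 CPM in CD8-only and 4273 CPM in CD4-only cells. In MGJ2 all 5 chondrocyte genes counted and all 4 osteoblast genes were, and the chondrocyte list summed to 125 and 3168 CPM. Over all genes counted, 17.1% in MGJ and 4.27% in MGJ2 were at most 0.5 times as high. Without mixed barcodes this was not seen for most of the genes read again. The ratio in MGJ2 was then 2.22 for Col10a1 (0.900 to 7.09), 1.51 for Acan, 1.04 for Col11a1 and 0.565 for Comp (0.245 to 1.45). For the osteoblast genes Col1a2 and Col1a1 it was 1.76 and 0.816. In MGJ it was 1.25 for Lyz2 and 0.496 for Ccr2, both of the macrophage and monocyte list. Col1a1, Col1a2 and Lyz2 were part of the definition of mixed barcodes, so their second values are no check. The 10 genes lowest in CD8-only against CD4-only cells of MGJ2 were Gpx3, Dcn, Timp3, Smoc2, Rbp4, Frzb, Pcsk6, Prelp, Col6a3 and Snorc, mostly genes of matrix-forming cells. Dcn, which encodes the matrix proteoglycan decorin, was at 41.2 CPM in all T cells of MGJ2 and at 2.08 CPM without the mixed barcodes. In the other direction the first 10 included Gzma, Bend4, Kcnj8, Maml2, Tm6sf1, Cdca4, Senp7, Cisd1 and Hba-a1. Bend4 had a ratio of 18.8 (6.37 to 91.7), and those named after it rested on 1 or 2 UMIs in CD4-only cells. Hba-a1, an alpha globin, had 0 UMIs in CD8-only cells of MGJ2 without mixed barcodes. Without mixed barcodes, 293 genes were at least 2 times and 444 at most 0.5 times as high in CD8-only cells of MGJ, and 47 and 151 in MGJ2. The number of genes counted was not taken for that run, so no share is given and these counts do not show whether the share rose or fell.

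The splits of T cells by single genes in the following paragraphs were chosen after values had been seen and are descriptions. CD8-only cells of MGJ2 fell apart by Ccl5, which was detected in 251 of them and not in 59. Those without Ccl5 were not the shallower cells, with a median of 5997 UMIs against 5135. Naive genes were high in the cells without Ccl5. Ccr7 was at 899 CPM in 56 of those 59 cells and at 191 CPM in 59 of the 251 with Ccl5 (ratio 0.213, 0.182 to 0.249). Satb1, a chromatin organiser of resting T cells, was detected in all 59 at 1388 CPM, against 391 CPM. Lef1 was also detected in all 59, at 582 CPM against 210 CPM, and Klf2 stood at 815 against 250 CPM.

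Effector genes were almost absent from the same 59 cells. Gzmk and Gzmb had 0 UMIs there, against 131 and 138 CPM in the cells with Ccl5. Klrc1 was detected in 1 of them and in 180 of the 251, at 2.53 and 427 CPM. Gzma was at 2.53 CPM without Ccl5 and 550 CPM with it, and Fasl, the death receptor ligand, at 2.53 and 166 CPM. Receptors for inflamed tissue had the same order. Cxcr6 was at 15.2 and 350 CPM (ratio 23.0, 10.5 to 63.0), and Cxcr3 at 5.06 and 110 CPM. S100a8, a neutrophil gene, was at 347 CPM without Ccl5 and 3319 CPM with it. Without mixed barcodes S100a8 was at 179 and 146 CPM, while Ccr7 was at 989 CPM in 54 cells without Ccl5 and 177 CPM in 233 cells with it. In MGJ only 4 CD8-only cells lacked Ccl5, and Ccr7 was at 1009 CPM in them and 39.1 CPM in the other 23.

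Foxp3, on chromosome X from 7573644 to 7595245 (GRCm38), was detected in 30 T cells of MGJ (14.1%, 9.71 to 19.5%) and 16 of MGJ2 (2.45%, 1.41 to 3.96%). No neutrophil of either library held a Foxp3 UMI, which allows a share of up to 0.164% and 0.174%. After thinning, the shares were 6.85% and 0.963%. Its level was 62.2 CPM in MGJ and 13.5 CPM in MGJ2. Of the Foxp3 cells, 6 and 5 held Cd4 alone, 0 and 1 held Cd8a or Cd8b1 alone, and 26 and 16 held Trac. Their median depth was 3138 and 5853 UMIs, close to that of the remaining T cells (3397 and 5283).

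The Foxp3 cells carried receptors of activated regulatory T cells. In MGJ, Tnfrsf4 was detected in 27 of the 30 and stood at 1533 CPM, against 249 CPM in the remaining T cells (ratio 6.15, 5.05 to 7.49). In MGJ2 Tnfrsf4 was in 12 of 16, at 587 against 27.3 CPM. Il1rl1 encodes ST2, the interleukin 33 receptor of tissue regulatory cells, and was in 16 of 30 at 712 against 68.7 CPM. In MGJ2 Il1rl1 was in 8 of 16, at 293 against 3.98 CPM (ratio 73.8, 40.4 to 142). Ikzf2 was in 25 of 30 and in all 16. Il2ra was in 23 and 9, and Ctla4, an inhibitory receptor, in 20 and 14. Gzmb was in 14 of the 30 Foxp3 cells of MGJ, at 588 against 83.9 CPM. Other genes were lower with Foxp3, such as Rgs1 in MGJ at 260 against 1114 CPM, and Ccl5 at 34.2 against 1567 CPM.

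Some B-cell and myeloid transcripts were found beside Foxp3. Ighm, the immunoglobulin mu heavy chain gene, was in 9 of the 30 Foxp3 cells of MGJ at 171 CPM, against 11.4 CPM in the rest. In MGJ2 it was in 11 of 16, at 236 against 54.9 CPM. Cd79b and Pax5 had 0 UMIs in the Foxp3 cells of both libraries. Cd74, an MHC class II gene, was at 342 against 680 CPM in MGJ and at 4718 against 450 CPM in MGJ2, and S100a8 was at 8014 against 2382 CPM in MGJ2. Without mixed barcodes, 26 and 12 Foxp3 cells were left. Among these, Cd74 was at 131 against 26.1 CPM in MGJ and at 82.9 against 31.4 CPM in MGJ2, and S100a8 was at 166 against 164 CPM in MGJ2. Ighm stood at 274 against 9.33 CPM in MGJ and at 415 against 55.5 CPM in MGJ2. Tnfrsf4 was 7.12 times as high with Foxp3 in MGJ (5.78 to 8.79) and 26.4 times in MGJ2 (19.1 to 36.3).

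Il17a and Il17f, which encode cytokines of type 17 cells that call in neutrophils, were almost limited to MGJ. Il17a gave 407 UMIs in 12 T cells of MGJ, of which 42.8% came from 1 cell and 97.3% from 5 cells, and 1 UMI in MGJ2. Il17f gave 178 UMIs in 16 cells of MGJ and 5 UMIs in 2 cells of MGJ2. Together 19 T cells of MGJ and 3 of MGJ2 held either gene. Of the 19, none held Cd8a or Cd8b1, 4 held Cd4 alone, and 10 held a gamma-delta constant gene. All 3 cells of MGJ2 held a gamma-delta constant gene.

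The pair lies on chromosome 1 with 59.7 kb between its gene starts as GENCODE gives them, Il17a from 20730905 to 20734496 on the plus strand and Il17f from 20777146 to 20790617 on the minus strand (GRCm38). The 250 bases before each RefSeq start are shown because the 2 genes were found in an overlapping set of cells, Il17a in 12 and Il17f in 16 of the same 19. They lie at chr1:20730655-20730904 for Il17a and chr1:20784271-20784520 for Il17f, with capitals for the same motifs as above.
Il17a: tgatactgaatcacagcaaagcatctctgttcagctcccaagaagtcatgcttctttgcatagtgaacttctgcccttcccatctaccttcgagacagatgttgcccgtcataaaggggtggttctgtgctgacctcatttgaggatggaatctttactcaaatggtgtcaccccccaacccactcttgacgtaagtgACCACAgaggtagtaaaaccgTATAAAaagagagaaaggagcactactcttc
Il17f: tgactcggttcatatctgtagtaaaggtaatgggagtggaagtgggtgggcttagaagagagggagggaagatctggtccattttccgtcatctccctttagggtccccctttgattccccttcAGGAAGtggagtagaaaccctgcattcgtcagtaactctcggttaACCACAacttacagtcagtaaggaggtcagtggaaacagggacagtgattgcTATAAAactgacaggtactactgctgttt
Both stretches held TGTGGT on the opposite strand, 52 bases before the start in Il17a and 81 in Il17f, and both held TATAAA, 31 and 29 bases before it. Il17f also held AGGAAG 126 bases before its start. The shares of all promoters with these letters are those given for Cd3d and Cd3g.

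Genes of innate-like gamma-delta cells were found in some of the 19 cells of MGJ. Trdc, the delta constant gene, was in 10 of them, at 1157 against 51.0 CPM in the remaining T cells. Cd163l1, a scavenger receptor known from interleukin 17 producing gamma-delta cells, was in 10, at 623 against 16.6 CPM (ratio 37.5, 20.6 to 72.9). Blk, a SRC-family kinase, was in 8, at 278 against 7.12 CPM. Ccr6, their chemokine receptor, was in 5, and over all T cells stood at 38.6 CPM in MGJ and 0.763 CPM in MGJ2 (0.297 CPM without mixed barcodes). Trac was in only 5 of the 19.

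Trdc itself was detected in 18 T cells of MGJ (8.45%) and 62 of MGJ2 (9.51%). The intervals of these shares overlapped (5.09 to 13.0% and 7.37 to 12.02%). Neutrophils held Trdc in 1.25% and 0.232%. After thinning, the order was the reverse, with 6.98% of T cells in MGJ and 4.37% in MGJ2. The thinned shares in neutrophils were 0.300% and 0.0346%. The level of Trdc over all T cells was likewise higher in MGJ, at 158 CPM against 63.9 CPM in MGJ2. The Trdc cells of MGJ and MGJ2 differed in their genes. In MGJ, 13 of the 18 held Cd163l1, against 7 of the 62 in MGJ2. Ccl5 was in 2 of 18 in MGJ, at 431 CPM, and in 46 of 62 in MGJ2, at 4915 CPM. Trac was in 3 and 15 of the Trdc cells, and its level there was 71.8 against 366 CPM in the remaining T cells of MGJ and 88.8 against 369 CPM in MGJ2. Klrk1, which encodes NKG2D, was in 14 of 18 at 316 CPM and in 27 of 62 at 178 CPM. Il2rb was in 18 of 18 and 61 of 62. A difference in these shares between the libraries was not tested.

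**Figure D4:**
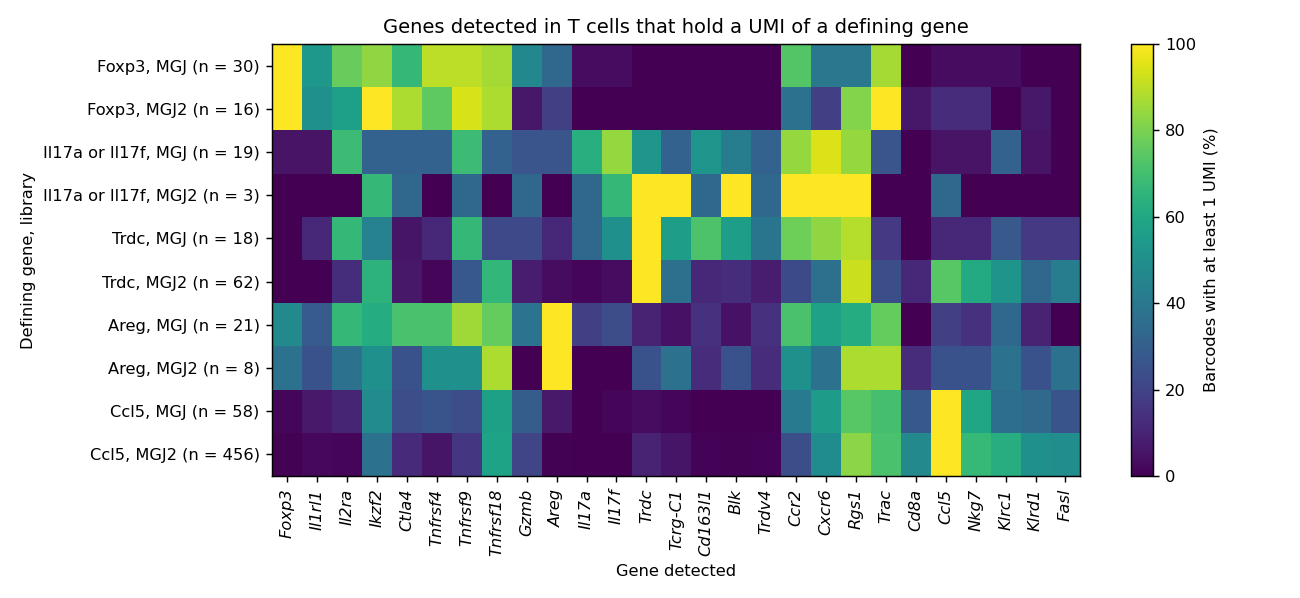
Percent of barcodes with at least 1 UMI of each gene (columns) among T cells that hold a UMI of a defining gene (rows, with the library and the number of barcodes), on a colour scale from 0 to 100%. Foxp3 cells hold Ikzf2, Tnfrsf4 and Tnfrsf9 in most barcodes, the Il17a or Il17f cells of MGJ hold Trdc and Cd163l1 in 10 of 19, and Ccl5 is in 46 of 62 Trdc cells of MGJ2 and 2 of 18 in MGJ.

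The map of co-detected genes sets these classes side by side. Variable segments of the receptor, which lie far from the sequenced 3′ end, gave few UMIs. A beta variable segment (Trbv) was detected in 12 T cells of MGJ and 32 of MGJ2, over 5 and 18 of 35 segments, and 1 cell of MGJ2 held more than 1. An alpha segment (Trav) was detected in 10 and 35 cells. Trdv4, which encodes a delta variable chain, was found in 8 T cells of MGJ, all without a coreceptor UMI, and in 7 of MGJ2. The gamma constant genes Tcrg-C1, Tcrg-C2 and Tcrg-C4 are near copies, so reads may be shared among them. Tcrg-C1 was in 10 of 18 Trdc cells of MGJ and 23 of 62 of MGJ2.

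Cytokines that act on bone cells ranged from genes found in many T cells to genes without a UMI. Tnfsf11 was detected in 30 T cells of MGJ (14.1%) and 19 of MGJ2 (2.91%), at 104 and 7.89 CPM. Thinned, the shares were 5.72% and 0.722%, against 0.274% and 0.00181% in neutrophils. Of these cells, 13 and 10 held Cd4 alone, and 0 and 2 held Cd8a or Cd8b1 alone. In MGJ they also held Col1a1, a collagen gene of osteoblasts, at 4178 CPM against 666 CPM in the remaining T cells. Without mixed barcodes Col1a1 was at 64.7 against 135 CPM, and the Tnfsf11 level of MGJ was 98.8 CPM. Tgfb1 was alike in both libraries, at 391 and 324 CPM.

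Areg encodes amphiregulin, an EGF receptor ligand of tissue repair. It was detected in 21 T cells of MGJ and 8 of MGJ2, at 361 and 3.56 CPM, but 225 of its 337 UMIs in MGJ (66.8%) came from 1 cell. Of the 21, 10 also held Foxp3 and none held Cd8a or Cd8b1 alone. Ltb, the lymphotoxin beta gene, was at 755 and 110 CPM, and Tnfsf8 was in 49 and 28 cells at 164 and 24.4 CPM. Ifng, for interferon gamma, was rare in both libraries, with 7 UMIs in 4 cells of MGJ and 23 UMIs in 19 cells of MGJ2, of which 13 were CD8-only. Il4 had 1 and 0 UMIs, Il13 had 2 and 0, and Il5, Il3 and Il21 had 0 in both.

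Several cytokine levels rested on mixed barcodes. Ccl3 was at 528 CPM in MGJ and 68.7 CPM in MGJ2, and without mixed barcodes at 132 and 19.9 CPM. Ccl4 was at 608 CPM in MGJ and 90.9 CPM without them. Il6 was at 47.2 CPM in MGJ and 6.38 CPM without them, and Osm, for oncostatin M, at 44.0 and 3.19 CPM. Of the bone-acting list, 8 of 15 genes counted in MGJ were at least 2 times and 6 at most 0.5 times as high in T cells as in other barcodes, and in MGJ2 2 and 7 of 10 were, to be read against the backgrounds given above for this contrast.

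Mki67, a marker of cycling cells, was detected in 10 T cells of MGJ (4.70%) and 27 of MGJ2 (4.14%), at 38.6 and 46.8 CPM. Neutrophils held it in 6.27% and 11.6%, and after thinning to 1000 UMIs the shares were 1.61% and 1.53% in T cells against 1.78% and 4.10% in neutrophils. The share in T cells did not exceed that in neutrophils. Neutrophils also held Top2a, a gene of dividing cells, in 5.78% and 11.0%, so they set no floor for Mki67. These shares do not decide how many T cells were dividing. The T cells with Mki67 were deeper than the rest, with medians of 8342 and 13499 UMIs against 3297 and 5242. Top2a, a topoisomerase of dividing cells, was in 7 of the 10 and 19 of the 27. Of the 27 in MGJ2, 13 were CD8-only, 5 held Foxp3 and 10 held Gzma. S100a8 was at 12060 CPM in them against 1674 CPM in the remaining T cells, and at 124 against 168 CPM without mixed barcodes. Without them, Mki67 was in 2.79% of T cells of MGJ, at 20.7 CPM, and in 3.78% of MGJ2. Rag1, needed for receptor rearrangement, had 0 UMIs in the T cells of MGJ and 10 UMIs in 2 cells of MGJ2, and Rag2 had 0 in both.

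Of the genes the study was built around, Piezo1, the mechanosensitive channel, was detected in 25 T cells of MGJ (11.7%) and 98 of MGJ2 (15.03%). Neutrophils held it in 10.7% and 10.5%, and after thinning to 1000 UMIs the shares were 2.95% and 2.87% in T cells against 2.73% and 3.40% in neutrophils. At this depth the T-cell share is therefore not told apart from that in neutrophils. The level of Piezo1 in T cells was 36.5 CPM in MGJ (22.3 CPM without mixed barcodes) and 32.1 CPM in MGJ2, below the 90.2 and 55.2 CPM of all other barcodes. Apoe, which encodes apolipoprotein E, was at 1051 CPM in the T cells of MGJ and 96.2 CPM in those of MGJ2, and without mixed barcodes at 44.6 and 10.1 CPM. Piezo2 had 1 and 0 UMIs, the former in a mixed barcode.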

How the data were processed

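Calluses were digested and single cells captured with the 10x Genomics 3′ kit (version 3). The authors deposited 1 filtered matrix of raw UMI counts per library, not normalized. The file headers name Cell Ranger 4.0.0, and the submitters' processing notes name GRCm38. The gene annotation used for counting was not given in the sources used here. The matrices held 14295 barcodes and 135304426 UMIs (MGJ) and 8009 barcodes and 61130834 UMIs (MGJ2). Barcodes with under 200 genes (371 and 70) or over 20% mitochondrial UMIs (464 and 133) were removed.

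Levels were UMIs summed over a class per 1000000 UMIs (CPM), with exact Poisson intervals. Ratios had conditional binomial and shares Clopper-Pearson intervals, all at 95%. A ratio of at least 2 or at most 0.5 was counted, among genes whose mean CPM over both classes reached 20 (50 for CD8-only against CD4-only). For CD8-only against CD4-only cells, a class with 0 UMIs was set to 3 in these counts. For T cells against other barcodes, only the other barcodes were set to 3, where they held fewer UMIs of a gene. Neutrophils were barcodes with S100a8 and S100a9 at 50 or more per 10000 UMIs, a Csf3r UMI and no Cd3, Cd79a or Ms4a1 UMI. NK cells held at least 3 UMIs from at least 2 of the 5 NK genes, no Cd3 UMI, and met the same B cell and Col2a1 limits. Thinned shares were hypergeometric expectations at 1000 UMIs per cell. Scrublet (scanpy 1.11.5) assumed 0.8% doublets per 1000 barcodes, and its calls were kept in. With 1 library per possible group, no test could be run. Named genes were those of 32 lists, the first 15 by T-cell ratio and the first 10 by CD8-to-CD4 ratio in each direction, with at least 20 UMIs, and some of these genes are not reported here. The T-cell rule, the lists and the splits were chosen with earlier results of these data known. The script for ratios and intervals was tested on simulated data. Gene positions came from GENCODE M21 (GRCm38). Other tools were Python 3.11.15, numpy 2.4.6, scipy 1.17.1, pandas 2.3.3 and matplotlib 3.10.9.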

Additional observations from a re-analysis of the deposited data

Results flagged for a closer look

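Of the 835 barcodes of library MGJ that the filters on genes and mitochondrial UMIs removed, 5 met the T-cell rule (0.599%, exact binomial interval 0.195 to 1.39%). The share lies above the 0.359% (3 counts of the total) that a count of 0 would allow, but its interval includes that value. Among the kept barcodes of MGJ, 1.58% met the rule. The count of 5 was singled out because these barcodes lay outside every comparison. In MGJ2, 2 of 203 removed barcodes met the rule.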

How the results depend on the processing

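Of 212 values recomputed under 15 alternatives, 194 moved by less than their counting error or, for counts of genes, by less than 1.5 times. The last alternative, the removal of mixed barcodes, was added after the data had been seen. The T-cell share of MGJ was 1.35% with 5 UMIs from 3 genes, 2.31% with barcodes holding a myeloid UMI removed and 1.33% without mixed barcodes. In MGJ2 it was 7.38% with 5 UMIs from 3 genes, 6.25% with no NK UMI allowed and 16.3% with myeloid barcodes removed. The share with Cd69 in MGJ2 was 20.1% with no NK UMI allowed. For T cells against other barcodes, a mean of at least 50 CPM gave 534 higher and 481 lower genes in MGJ and 372 and 486 in MGJ2, and removing myeloid barcodes gave 374 higher genes in MGJ2. For CD8-only against CD4-only cells, a mean of at least 100 CPM gave 98 and 195 genes in MGJ and 18 and 66 in MGJ2, and asking for at least 2 coreceptor UMIs gave 371 and 98 higher genes. The numbers of genes counted under the alternatives were not taken, so these counts are not given as shares. The stricter limits on CPM tested fewer genes by construction. Stricter T-cell rules likewise kept fewer T cells out of the same barcodes. Removing myeloid barcodes took barcodes out of the total as well as out of the T cells. The cause of the remaining shifts was not tested.

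No paired analysis was possible because the libraries carry no replicate numbers and no groups. Cells of 1 library share mice that the barcodes do not separate, so intervals give counting error only and none of these differences has a replicate check. Depth limits the coreceptor classes and every share of cells with a UMI.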

Other observations

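Ifi27l2a, an interferon-induced gene, was at 587 CPM in MGJ and 312 CPM in MGJ2, and in the Foxp3 cells it was detected in 29 of 30 and 15 of 16. Chemokine receptors other than those named above also differed in level. Ccr2, a receptor for monocyte chemokines, was at 370 and 118 CPM, Cxcr4, which holds cells in the marrow, at 300 and 872 CPM, and Cxcr3 at 94.4 and 76.6 CPM. Pdcd1, which encodes PD-1, was at 173 and 123 CPM, and Lag3 at 21.4 and 3.05 CPM. Satb1 was at 307 and 677 CPM over all T cells, and Ets1, another lymphocyte transcription factor, at 515 and 963 CPM.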
